A study of Homo sapiens with 18 samples.

Results

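The comparison described here set RNA from Raji cells harvested at 48 h against RNA from the same line harvested at 0 h, the last and the first point of a time course. Raji is an established human Burkitt lymphoma line, a malignant B cell that carries Epstein-Barr virus. Every array was labelled with the same agents, 3 mM sodium n-butyrate, 0.05 µM of a phorbol ester (not named further) and 19 µM maslinic acid, and the labels place induction with butyrate and the ester first. The 0 h cells carry these labels too, and whether they had already received maslinic acid when they were harvested cannot be told from the labels. Each difference is therefore one between the labelled times, and how much exposure to the triterpene it spans is not known. No culture without one of the agents was analysed here, and what each agent, the time in culture or cell density adds cannot be told apart. All 3 arrays of 48 h and all 3 of 0 h were compared, out of 18 arrays at 6 times (0, 4, 8, 12, 24 and 48 h, 3 arrays each). The members are the 18417 genes named by a probe set that carries 1 gene name, each represented by its brightest such probe set, and they make up all 18417 genes of the series. The labels call the replicates biological, but nothing says that they came from separate cultures. The p-values therefore measure the spread between these samples, which may be technical.

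Maslinic acid is a plant triterpene found in olive skin. Sodium butyrate blocks histone deacetylases, and phorbol esters stand in for diacylglycerol and switch on protein kinase C, which feeds the ERK and NF-kappaB routes. The pair is a classical way to wake latent Epstein-Barr virus in B cell lines. B cells that sense nucleic acid or interferon turn on interferon-stimulated genes through activated factors that bind a GAAA-rich element in the promoters. Cells that leave the division cycle lose the products of E2F target genes, needed for DNA synthesis, and of the cell-cycle genes with CHR elements, needed for mitosis. The array holds human probes, and viral transcripts were not analysed here.

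Values are log2 intensities, so a difference of 1 is 2-fold. Each difference is the mean of the 48 h arrays minus the mean of the 0 h arrays, given with its standard error (SE), and a gene counts as changed where limma gave a Benjamini-Hochberg adjusted p under 0.05 over all 18417 genes. The medians of the 18 arrays lay between 4.03 and 4.25, and the interquartile ranges of the 6 arrays compared lay between 2.74 and 3.00. Correlations within a time were 0.977 to 0.983 at 0 h and 0.966 to 0.981 at 48 h. The third array of 48 h was the lowest of the 3 in 101 of the 160 genes that were at least 4-fold higher (63.1%) and in 84 of the 172 that were at least 4-fold lower (48.8%), against 34.9% of the genes that were not called. Over all called genes the third array was the lowest in 46.1% of those higher and in 29.5% of those lower. In the 1493 genes called lower the first 48 h array was the lowest most often (53.2%). The third array also had the lowest limma array weight of the 48 h arrays (0.528). The order of the 0 h arrays was not counted. The third 0 h array was the highest of the 3, nearest to 48 h, for SLC2A3, CCR7, DDIT3, BCL2A1 and CD274. It was the lowest for IFI44, CXCL9, CD69 and TNFSF10. The B cell gene MS4A1 (CD20) read 10.53, 9.97 and 9.58 at 0 h and 9.58, 9.27 and 10.18 at 48 h, a difference of -0.35 (limma adjusted p = 0.519). The arrays of MS4A1 overlapped. None of the measured markers of T and NK cells (7), monocytes and macrophages (5), epithelium (5), fibroblasts (5) or erythroid cells (2) was called by limma, and 2 of them had an unadjusted p under 0.05. The means of those 5 lists ran from 3.0 to 4.1 on each array, which is near or below the array medians.

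At 48 h, 2768 of 18417 genes differed from 0 h (15.0%), of which 1275 were higher (6.92% of all genes) and 1493 lower (8.11%). List counts below that carry no share are to be read beside these shares. At least 2-fold changes were called for 1388 genes (7.54%), with 625 higher (3.39%) and 763 lower (4.14%). The largest rises went further than the largest falls: 60 genes were at least 8-fold higher against 35 at least 8-fold lower, and 24 were at least 16-fold higher against 2. Without any test, all 3 arrays of 48 h lay above all 3 of 0 h in 2791 genes (15.2%) and below in 2435 (13.2%). Of the called genes, 1211 higher and 1442 lower ones had arrays that did not overlap, and 115 had arrays that did. The called genes split into 46.1% higher with the deposited values and 33.1% once the arrays were centred on their medians. The median difference of all genes was 0.05 before centring and -0.07 after it. Among the 4605 genes of the lowest quartile of mean level, 99 were higher and 28 lower. Among the 4604 genes of the top quartile, 524 were higher and 977 lower. Genes that read near the lower quartile of an array (2.99 to 3.12 on these 6) are near background, and their differences may be understated. In RNA from whole cultures, fewer cells of a type and less RNA per cell cannot be told apart.

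**Figure D1:**
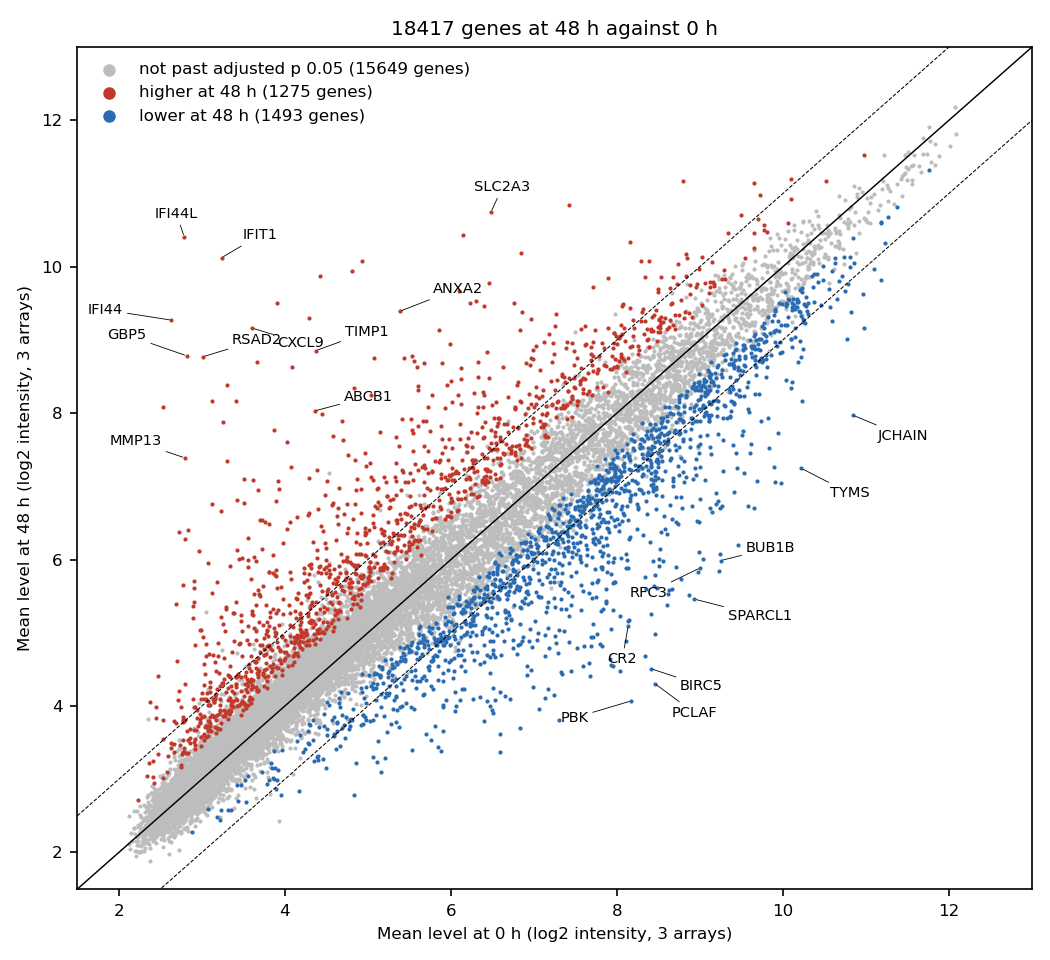
Mean log2 intensity of each of the 18417 genes over the 3 arrays of 0 h (horizontal axis) and the 3 arrays of 48 h (vertical axis), with 1275 genes called higher in red, 1493 called lower in blue and the rest in grey. The solid line marks equal levels and the dashed lines a 2-fold difference, and the labelled interferon-stimulated and chemokine genes lie farthest above it while the cell-division genes lie farthest below.

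The largest rises belonged to interferon-stimulated genes. IFI44L, a feedback regulator of the interferon response, read 2.67, 3.05 and 2.64 at 0 h and 10.57, 10.51 and 10.15 at 48 h. The arrays of each time lay close together for IFI44L and the times were far apart, a difference of 7.62 (SE 0.43, limma adjusted p = 4.01e-09) or 196-fold. IFIT1, which binds viral RNA that lacks the host cap methylation, read 3.14, 3.86 and 2.72 at 0 h and 10.29, 10.51 and 9.57 at 48 h. That is a difference of 6.89 for IFIT1 (SE 0.40, limma adjusted p = 4.01e-09). IFI44, the neighbour of IFI44L on chromosome 1, read 2.68, 2.90 and 2.32 at 0 h and 9.66, 9.47 and 8.68 at 48 h, 6.63 higher (SE 0.41, limma adjusted p = 6.69e-09). In IFI44L, IFIT1 and IFI44 alike the 0 h arrays were near background, so the differences may be understated.

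RSAD2 (viperin), which makes a chain-terminating nucleotide, read 2.69, 3.14 and 3.21 at 0 h and 9.5, 9.71 and 7.10 at 48 h. The third 48 h array of RSAD2 lay more than 2 units below the other ones but still above every 0 h array. The difference was 5.75 (SE 0.75, limma adjusted p = 3.07e-05), and 6.59 without that array. XAF1, an interferon-induced antagonist of caspase inhibitors, differed by 5.61 (SE 0.49, limma adjusted p = 3.43e-07). IFIT3 and IFIT2, partners of IFIT1, differed by 5.45 and 4.76, and the antiviral GTPase MX2 and the host restriction factor SAMD9L by 5.04 each. No overlap between the arrays of the times was part of the rule that named these 5 genes.

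Of the 35 measured members of the antiviral effector list, 31 rose and none fell, with a median difference of 2.35 against 0.05 over all genes. In 33 of the 35 all 3 arrays of 48 h lay above those of 0 h, as they did in 15.2% of all genes. Without the third 48 h array 32 rose and the median was 2.77. The members that did not pass were CMPK2 (0.27, limma adjusted p = 0.249), IFITM2 (-0.15), IFITM3 (1.09, limma adjusted p = 0.084) and MX1 (0.44, limma adjusted p = 0.0694). The list mean on each array was 4.35, 4.30 and 4.19 at 0 h and 7.43, 7.51 and 6.67 at 48 h.

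The promoters of the 2 genes that rose most are shown. They were searched for a word that resembles the element bound by interferon-activated factors. Each is the 250 bases before the annotated start, from RefSeq on GRCh38.p14, read 5′ to 3′ on the plus strand, and the capitals mark matches on either strand to GAAA, any 2 bases and GAAA again, the word used here for the interferon-stimulated response element (ISRE). The windows are chr1:78620198-78620447 for IFI44L and chr10:89392373-89392622 for IFIT1.
IFI44L: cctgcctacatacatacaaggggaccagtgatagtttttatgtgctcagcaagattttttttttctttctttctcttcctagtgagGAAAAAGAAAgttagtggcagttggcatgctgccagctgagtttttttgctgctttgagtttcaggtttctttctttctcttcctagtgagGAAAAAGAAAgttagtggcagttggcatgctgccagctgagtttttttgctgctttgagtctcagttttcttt
IFIT1: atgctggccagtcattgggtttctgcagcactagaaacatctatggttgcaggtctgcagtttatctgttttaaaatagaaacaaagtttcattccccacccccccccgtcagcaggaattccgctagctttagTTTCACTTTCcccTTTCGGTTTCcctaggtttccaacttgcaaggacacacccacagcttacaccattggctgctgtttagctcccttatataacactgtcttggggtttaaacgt
The IFI44L window holds the word at 164 and at 73 bases before the start. The IFIT1 window holds a pair of matches on the minus strand, the first at 116 and the next at 103 bases. In windows of 300 bases (250 before and 50 after the start), the ISRE word was found in 20 of the 28 effector genes with a promoter in the table (71.4%) and in 3.65% of all 27305 promoters. It was found in 11.6% of the promoters of genes at least 2-fold higher and in 2.77% of those of genes that were not called. A match is a run of letters and not a measured site.

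Guanylate-binding proteins rose in 4 of 6 cases, and several of them were uneven among the 48 h arrays. GBP5, a GTPase that attacks the membranes of pathogens and assembles inflammasomes, read 2.75, 2.87 and 2.83 at 0 h and 10.48, 10.64 and 5.23 at 48 h. The third 48 h array of GBP5 was about 5 units under the other ones. The difference was 5.97 with a wide error (SE 1.25, limma adjusted p = 0.00271), and 7.74 without that array. GBP2 read 3.12, 3.29 and 3.36 at 0 h and 8.70, 8.26 and 6.67 at 48 h, 4.62 higher (SE 0.68, limma adjusted p = 0.00011) and 5.22 without the third array. GBP4 read 2.45, 3.07 and 2.54 at 0 h and 6.83, 6.35 and 2.98 at 48 h, so the third 48 h array lay within the 0 h range. The difference of 2.70 for GBP4 (limma adjusted p = 0.00841) was 3.91 without that array and was not called without 48 h replicate 1 (0.0584) or 48 h replicate 2 (0.0535). GBP3 was 1.38 higher (limma adjusted p = 0.0126), a call lost without 0 h replicate 2 (0.0645) or 48 h replicate 2 (0.0777). No GBP gene fell, and 2 rose when 48 h replicate 2 was left out.

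The ligands of CXCR3, which draw T and NK cells, were likewise lowest on the third array of 48 h. CXCL9 read 3.69, 3.81 and 3.33 at 0 h and 11.06, 10.38 and 6.04 at 48 h, 5.55 higher (SE 1.22, limma adjusted p = 0.00376) and 7.11 without the third 48 h array. CXCL11 read 3.24, 3.40 and 3.28 at 0 h and 9.98, 10.04 and 5.12 at 48 h, 5.07 higher (SE 1.09, limma adjusted p = 0.00319) and 6.70 without that array. For both ligands the third 48 h array was far below the others and still above every 0 h array. CXCL10 read 7.02, 4.70 and 6.72 at 0 h and 11.34, 10.65 and 9.29 at 48 h, 4.28 higher (SE 0.61, limma adjusted p = 7.68e-05). Among CC ligands, which bring in monocytes and T cells, CCL5 rose by 5.01 (SE 0.77) and CCL3 by 3.06 (SE 0.37). CCL3 read 9.57, 9.34 and 9.46 at 48 h, so its arrays, unlike those of CXCL9, did not spread. Of 37 chemokine ligands 7 rose (18.9%, against 6.92% of all genes) and none fell, with a list median of 0.23.

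**Figure D2:**
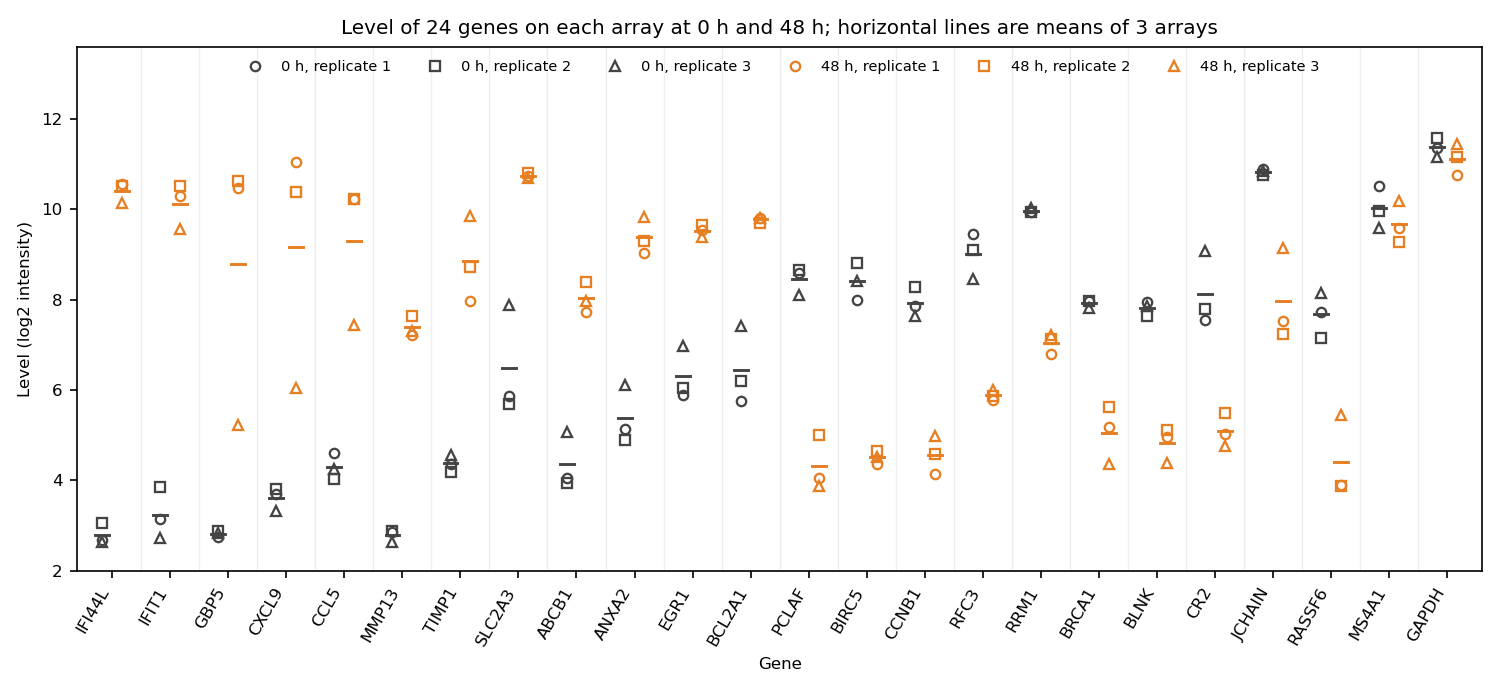
Log2 intensity on each of the 3 arrays of 0 h and of 48 h for 24 genes, with a symbol for each replicate number and a short line at the mean of the 3 arrays. GBP5 and CXCL9 show a low replicate 3 at 48 h (5.23 and 6.04), MMP13 and SLC2A3 show close arrays at 48 h (SD 0.22 and 0.05), and MS4A1 and GAPDH overlap between the times.

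Sensors of foreign nucleic acid rose in part. Among 18 nucleic acid sensing genes 6 rose (33.3%, against 6.92% of all genes) and 1 fell (5.56%, against 8.11%). RIGI, a sensor of short viral RNA, read 5.49, 4.42 and 4.5 at 0 h and 10.72, 10.11 and 9.0 at 48 h, 5.14 higher (SE 0.52, limma adjusted p = 2.13e-06). DDX60, a helicase linked to RIGI signalling, read 2.49, 2.56 and 2.54 at 0 h and 8.93, 8.65 and 6.68 at 48 h, 5.56 higher (SE 0.56, limma adjusted p = 1.81e-06). RIGI and DDX60 are among the 20 largest rises, which were picked from genes whose arrays did not overlap. IFIH1 (MDA5), the sensor of long RNA, differed by 2.18, and TLR7, the endosomal receptor of single-stranded RNA, by 1.4. TASL, the adaptor that carries endosomal Toll-like receptor signals to IRF5, fell by 1.33 (SE 0.20, limma adjusted p = 0.000111). The interferon-beta gene IFNB1 read 2.48, 2.44 and 2.63 at 0 h and 2.82, 3.40 and 2.86 at 48 h, all near background, a difference of 0.51 (limma adjusted p = 0.438).

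Interferon regulatory factors and JAK-STAT genes rose in part. IRF2, IRF4, IRF1 and IRF9 rose among 8 measured factors, by 2.08, 2.06, 2.02 and 1.07. The call of IRF1 was lost without 0 h replicate 2 (limma adjusted p = 0.102), 48 h replicate 1 (0.0667) or 48 h replicate 2 (0.078). IRF7 differed by 0.40 (limma adjusted p = 0.0989) and IRF8 by 0.05. Of 22 interferon, receptor and JAK-STAT genes 3 rose, STAT3 by 2.0 (SE 0.28, limma adjusted p = 7.51e-05), the kinase JAK2 by 1.64 and STAT4 by 0.60. STAT4 was not called without 0 h replicate 1 (limma adjusted p = 0.054), 0 h replicate 3 (0.0652) or 48 h replicate 1 (0.0615). Without 0 h replicate 3, 5 members of this list rose and 1 fell.

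Several restriction factor families had members among the rises. APOBEC3B, a deaminase that mutates cytosines in single-stranded DNA, read 4.18, 4.01 and 4.08 at 0 h and 8.65, 8.74 and 8.51 at 48 h. The difference for APOBEC3B was 4.54 (SE 0.33, limma adjusted p = 4.02e-08), with both sets of arrays tight. APOBEC3F, APOBEC3G and APOBEC3D were higher by 2.1, 1.81 and 1.61, which makes 4 of 6 APOBEC3 genes. SLFN5, a Schlafen protein that represses transcription, read 4.59, 4.59 and 5.61 at 0 h and 10.50, 10.20 and 9.53 at 48 h, 5.15 higher (SE 0.55, limma adjusted p = 3.5e-06). SLFN12 was the other Schlafen gene of 6 that rose (1.70).

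In the PARP family, whose members attach ADP-ribose, 3 of 14 rose (21.4%, against 6.92% of all genes) and 2 fell (14.3%, against 8.11%). PARP14 and PARP9, the interferon-induced members, rose by 3.26 (SE 0.39) and 3.01 (SE 0.28) and TIPARP by 1.69, while the DNA repair enzymes PARP2 and PARP1 fell by 0.83 and 0.77. The fall of PARP1 was lost without 0 h replicate 2 (limma adjusted p = 0.139) or 48 h replicate 1 (0.164), which leaves 1 lower member. Of 54 TRIM ubiquitin ligases 9 rose (16.7%, against 6.92% of all genes) and 1 fell (1.85%, against 8.11%). TRIM5, which binds retroviral capsids, read 5.89, 5.64 and 5.77 at 0 h and 8.33, 8.45 and 7.95 at 48 h, 2.48 higher (SE 0.23, limma adjusted p = 7.5e-07). TRIM22 differed by 2.35, TRIM38 by 1.93 and TRIM25, which activates RIGI, by 1.56.

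Of 14 class I antigen presentation genes 4 rose (28.6%, against 6.92% of all genes) and none fell: TAP1, the peptide transporter, by 2.0 (SE 0.44, limma adjusted p = 0.0037), the immunoproteasome subunit PSMB9 by 1.17 and the proteasome activators PSME2 and PSME1 by 0.78 and 0.53. Leaving out 0 h replicate 1, 0 h replicate 3, 48 h replicate 1 or 48 h replicate 2 left 2 members. The PSMB9 call was lost without each of these arrays (limma adjusted p = 0.0636 to 0.111) and that of PSME2 without 0 h replicate 3 (0.0725) or 48 h replicate 1 (0.0545). PSME1 was not called without 0 h replicates 1 (0.051), 2 (0.062) or 3 (0.111) or without 48 h replicates 2 (0.133) or 3 (0.0674). The ISRE word was found in 8 of 13 class I promoters (61.5%). Of 13 class II genes 3 rose (23.1%): HLA-DMB, the peptide exchange factor, by 1.26, HLA-DQA1 by 1.18 and HLA-DQB1 by 1.08. HLA-DQA1 read 6.0, 5.96 and 5.97 at 0 h and 7.13, 7.07 and 7.26 at 48 h, with no overlap. HLA-DQB1 had limma adjusted p = 0.0499 and was not called without 0 h replicates 1 (0.106), 2 (0.10) or 3 (0.113) or 48 h replicates 1 (0.276) or 2 (0.108).

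The falls were led by genes of cell division. PCLAF, a clamp-associated protein of replicating cells, read 8.60, 8.66 and 8.11 at 0 h and 4.05, 5.0 and 3.87 at 48 h, 17.8-fold lower. The difference for PCLAF was -4.15 (SE 0.33, limma adjusted p = 1.03e-07), while its other probe set gave -0.78 (limma adjusted p = 0.0617). BIRC5 (survivin), a member of the chromosomal passenger complex, read 8.00, 8.82 and 8.41 at 0 h and 4.37, 4.64 and 4.52 at 48 h, a difference of -3.90 (SE 0.26, limma adjusted p = 1.37e-08) that was -1.46 on its other probe set. PCLAF and BIRC5 are among the 20 largest falls, which were picked from genes whose arrays did not overlap. PBK, a mitotic kinase, differed by -4.10 (SE 0.30) and PLK4, the kinase that starts centriole duplication, by -3.66 (SE 0.23).

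Of 47 mitotic cyclins, kinases and spindle regulators 44 fell and none rose, with a median of -2.20, and 41 fell at least 2-fold. CCNB1 (cyclin B1), which drives entry into mitosis, read 7.87, 8.28 and 7.65 at 0 h and 4.14, 4.58 and 4.98 at 48 h. No array of CCNB1 at 48 h came within 2 units of any at 0 h, and the difference was -3.37 (SE 0.21, limma adjusted p = 6.69e-09). CCNB2 differed by -3.39 (SE 0.35), the spindle checkpoint proteins MAD2L1 and BUB1B by -3.47 (SE 0.21) and -3.26 (SE 0.17), and the spindle assembly protein DLGAP5 by -3.35 (SE 0.26). The members that did not pass were INCENP (0.04), PTTG1 (securin, -0.37, limma adjusted p = 0.181) and UBE2S (-0.47). List means on the arrays were 8.08, 8.19 and 8.05 at 0 h and 5.98, 6.10 and 5.52 at 48 h.

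Centromere, kinetochore, condensin and cohesin genes fell in 39 of 45 cases, with a median of -1.86 and no rise. NUF2, a subunit of the NDC80 complex that grips microtubules, read 9.57, 9.5 and 9.32 at 0 h and 6.97, 6.53 and 5.10 at 48 h, -3.27 (SE 0.36, limma adjusted p = 5.52e-06). SPC25 of the same complex differed by -3.23 (SE 0.25). CENPI, CENPK and CENPW, subunits of the inner kinetochore, differed by -3.08, -3.06 and -2.97. Kinesins, the motors of microtubules, fell in 12 of 38 cases (31.6%, against 8.11% of all genes). They rose in 4 (10.5%, against 6.92%), among them KIF1B by 1.4 (SE 0.24). KIF20A, KIF15 and KIF14, motors of cytokinesis and the spindle, differed by -3.56 (SE 0.32), -3.49 (SE 0.30) and -3.27 (SE 0.29), with KIF4A at -2.55 and KIF11 at -2.48. The other large falls of this kind were ASPM, a spindle pole protein (-3.23, SE 0.33), and DEPDC1, a cell-division gene that read 8.02, 8.14 and 7.71 at 0 h and 5.06, 4.73 and 3.85 at 48 h (-3.41, SE 0.41).

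DNA replication genes fell almost as broadly: 35 of 40, none rose, median -1.77, 33 at least 2-fold. RFC3, a subunit of the loader that puts the sliding clamp on DNA, read 9.46, 9.10 and 8.45 at 0 h and 5.79, 5.86 and 6.01 at 48 h, -3.12 (SE 0.27, limma adjusted p = 3e-07). CDC45 and MCM4, parts of the replicative helicase, differed by -3.08 (SE 0.25) and -2.80 (SE 0.26), and the initiation factor MCM10 by -2.95 (SE 0.26). CDT1, which loads the helicase, differed by -0.08 and did not pass. The arrays of RFC3, CDC45, MCM10 and MCM4 did not overlap.

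Nucleotide synthesis enzymes fell in 18 of 24 cases with none higher (median -0.97). RRM1, the large subunit of ribonucleotide reductase, read 9.95, 9.94 and 10.04 at 0 h and 6.80, 7.13 and 7.21 at 48 h, -2.93 (SE 0.15, limma adjusted p = 1.35e-09). TYMS, which makes thymidylate, differed by -2.97 (SE 0.27), RRM2B by -1.95, DUT by -1.89 and CTPS1 by -1.87. Homologous recombination and Fanconi genes fell in 24 of 34 cases with none higher (median -1.25). FANCI read 8.41, 8.65 and 8.16 at 0 h and 4.77, 5.41 and 5.60 at 48 h, -3.15 (SE 0.19, limma adjusted p = 6.69e-09). The nuclease EXO1 differed by -2.88, BRCA1 by -2.87 and the checkpoint kinase CHEK1 by -2.50.

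Among 19 E2F, retinoblastoma and DREAM genes 11 fell and 1 rose (median -0.78), and without 48 h replicate 2 none rose. MYBL2, of the mitotic list, which works with the MuvB core to switch on mitotic genes, read 7.96, 8.56 and 7.80 at 0 h and 4.69, 5.05 and 4.93 at 48 h, -3.22 (SE 0.19, limma adjusted p = 4.01e-09). LIN9 of the MuvB core differed by -2.56, the repressor E2F8 by -2.24, MYBL1 by -1.80, RBBP4 by -1.69 and the pocket protein RBL1 by -1.52. RB1 differed by 0.38 (limma adjusted p = 0.238) and E2F4 by -0.08. Of 16 G1 cyclins, CDKs and CDK inhibitors 4 fell and 2 rose, or 1 rose without 0 h replicate 2, 0 h replicate 3 or any 1 of the 48 h arrays. CCNE2 and CDK2, which start S phase, fell by 1.56 (SE 0.33) and 1.16 (SE 0.21). CDKN1A (p21), the inhibitor of CDK2, read 4.46, 4.99 and 4.55 at 0 h and 5.76, 5.78 and 5.93 at 48 h, 1.16 higher (SE 0.30, limma adjusted p = 0.0132), without overlap. That call was lost without 0 h replicate 1 (limma adjusted p = 0.0544).

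Histone genes, most of which are transcribed in S phase, fell in 18 of 67 cases (26.9%, against 8.11% of all genes). They rose in 3 (4.48%, against 6.92%), with a list median of -0.17. Without the third 48 h array 11 fell and 6 rose. Only 1 rose without 0 h replicate 1, 0 h replicate 2, 48 h replicate 1 or 48 h replicate 2. H2BC14 read 7.02, 7.38 and 6.79 at 0 h and 4.21, 3.74 and 3.94 at 48 h, -3.10 (SE 0.38, limma adjusted p = 1.52e-05). H2AC21, H3C2, H4C2 and H2BC10 fell by 2.78, 2.57, 2.46 and 2.09. Histone genes are near-identical copies, and how probes divide their signal is uncertain. In the p53 and growth arrest list 5 of 26 rose (19.2%, against 6.92% of all genes) and 4 fell (15.4%, against 8.11%). The nucleotide excision repair factor DDB2 fell by 1.86 (SE 0.27), the death receptor gene TNFRSF10B rose by 1.67 (SE 0.21), and the antiproliferative BTG1 rose by 1.53 (SE 0.35). GADD45B rose by 1.54, a call lost without 0 h replicate 2 (limma adjusted p = 0.16), 48 h replicate 1 (0.0746) or 48 h replicate 2 (0.115).

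Promoters of 3 genes that fell are shown, picked for holding the words. Among the genes searched, KIF20A and CCNB2 were the largest falls, overall and in the mitotic list, with both a CHR and a CCAAT word. RFC3 was the largest such fall of the replication list with an E2F word. The search left out genes of a single chromosome and genes without a promoter in the table. In KIF20A (chr5:138178862-138179111) and CCNB2 (chr15:59104896-59105145) the capitals mark TTTGAA or TTTAAA, the words used for the CHR, and CCAAT, each on either strand. In RFC3 (chr13:33817899-33818148) they mark the E2F words TTTCCCGC, TTTCGCGC, TTTGCCGC or TTTGGCGC on either strand. All are the 250 bases before the start, plus strand, from RefSeq on GRCh38.p14.
KIF20A: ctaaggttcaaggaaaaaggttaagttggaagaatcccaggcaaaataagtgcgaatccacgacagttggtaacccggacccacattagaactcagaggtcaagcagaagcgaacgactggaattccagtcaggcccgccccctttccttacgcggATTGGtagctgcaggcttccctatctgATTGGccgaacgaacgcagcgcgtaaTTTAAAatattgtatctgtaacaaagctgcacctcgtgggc
CCNB2: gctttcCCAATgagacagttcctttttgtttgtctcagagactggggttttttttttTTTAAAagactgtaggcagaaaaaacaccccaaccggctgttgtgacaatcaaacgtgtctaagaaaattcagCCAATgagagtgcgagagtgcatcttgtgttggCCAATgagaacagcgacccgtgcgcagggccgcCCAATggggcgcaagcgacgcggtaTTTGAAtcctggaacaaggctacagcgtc
RFC3: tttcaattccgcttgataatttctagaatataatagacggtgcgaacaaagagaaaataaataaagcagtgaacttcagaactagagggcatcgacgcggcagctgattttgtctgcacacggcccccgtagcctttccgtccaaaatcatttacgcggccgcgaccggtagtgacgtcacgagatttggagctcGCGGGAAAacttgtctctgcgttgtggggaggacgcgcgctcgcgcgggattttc
The CHR word of KIF20A begins 41 bases before the start and that of CCNB2 nearest to the start 29 bases before it, each downstream of CCAAT words. The E2F word of RFC3 begins 55 bases before the start. In the windows of 300 bases the CHR words were found in 25 of 38 mitotic promoters (65.8%), 20 of 38 centromere and kinetochore promoters (52.6%) and 0 of 33 replication promoters, against 24.3% of all promoters. E2F words were found in 17 of 33 replication promoters (51.5%) and 3 of 38 mitotic ones (7.89%), against 3.33% of all. CCAAT was found in 73.7% of mitotic, 57.6% of replication and 85.2% of histone promoters, against 35.7% of all. Over the keratin-associated protein, olfactory receptor, taste receptor, beta-defensin, ZNF and solute carrier families the CCAAT share ran from 25.9% (keratin-associated proteins) to 63.2% (taste receptors). The replication share of CCAAT is thus not particular to genes that fell. No match says only that these letters are not in the window.

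**Figure D3:**
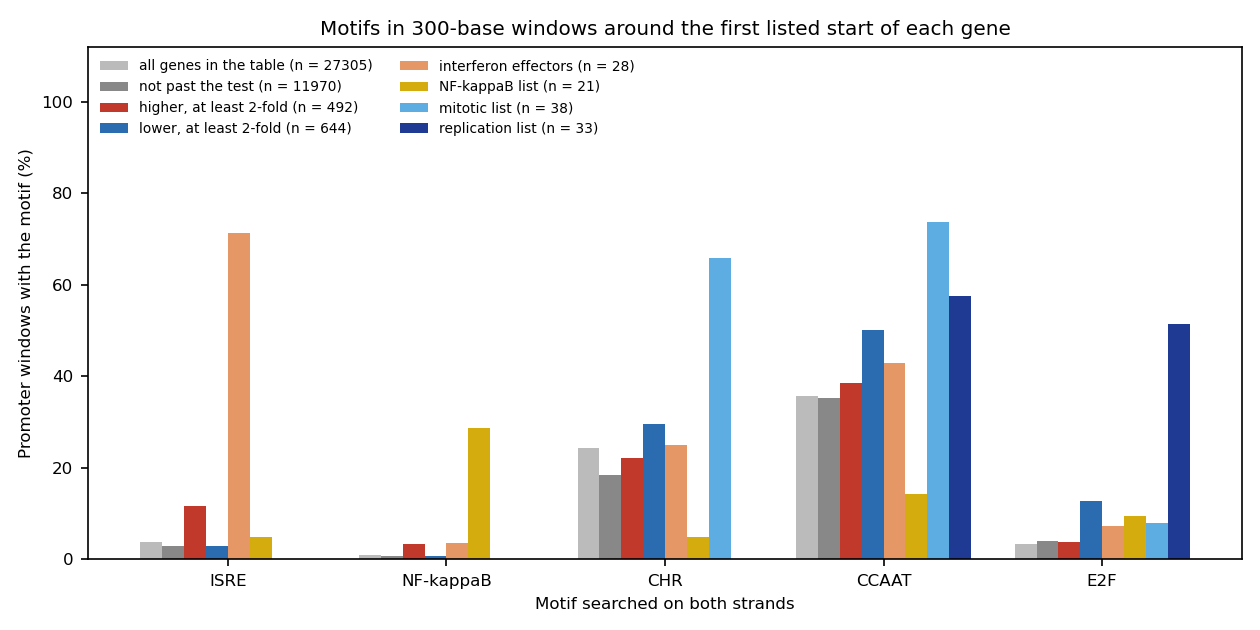
Share of promoters (percent, windows of 300 bases around the annotated start) that hold the ISRE, NF-kappaB, CHR, CCAAT or E2F words in 8 sets of genes, with the number of promoters in each set. The ISRE bar is tallest for the antiviral effectors (71.4%), the CHR bar for the mitotic list (65.8%) and the E2F bar for the replication list (51.5%).

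Genes for building ribosomes fell by smaller amounts. Of 37 ribosome biogenesis and RNA polymerase I genes 16 fell and none rose (median -0.52). That count was 10 without 0 h replicate 1, 10 without 0 h replicate 2 and 8 without 48 h replicate 1. UTP20, a processome component of the small subunit, read 8.51, 8.38 and 7.83 at 0 h and 5.92, 6.71 and 6.62 at 48 h, -1.82 (SE 0.24, limma adjusted p = 3.99e-05). NHP2, a core protein of H/ACA particles, differed by -1.97 (SE 0.43) and the polymerase I subunit POLR1E by -1.28 (SE 0.21). Of 191 small nucleolar RNAs, the guides of ribosomal RNA modification, 14 were lower (7.33%, under the 8.11% of all genes) and 2 higher (median -0.22). With arrays centred on their median 23 were lower, with the dimmest genes (1 in 3) left out 9, and without the third 48 h array 5 were higher. SNORA62 was the lowest of these (-2.05, SE 0.50, limma adjusted p = 0.00794).

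Cytosolic ribosomal proteins fell in 8 of 67 cases with none higher, near the 8.11% of all genes that fell (median -0.36). That count was 4 without 0 h replicate 3, 5 without 48 h replicate 2 and 14 with centred arrays. RPS23 read 8.23, 8.27 and 8.38 at 0 h and 7.52, 7.82 and 7.6 at 48 h, -0.65 (SE 0.13, limma adjusted p = 0.00142). Mitochondrial ribosomal proteins fell in 29 of 73 cases with none higher (median -0.54), and in 18 without 0 h replicate 2 or without 48 h replicate 1. MRPS27 read 7.90, 7.88 and 7.65 at 0 h and 5.73, 6.0 and 5.97 at 48 h, -1.91 (SE 0.17, limma adjusted p = 4.19e-07). MRPL46 differed by -1.46 (SE 0.18) and MRPL16 by -1.56 (SE 0.25). Neither RPS23 nor MRPS27 overlapped between the times.

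Respiratory chain genes showed falls and no rise. Complex I subunits fell in 9 of 33 cases (27.3%, against 8.11% of all genes, median -0.49), or 4 without 48 h replicate 1. NDUFS3 differed by -1.24 (SE 0.23, limma adjusted p = 0.00113). Cytochrome oxidase and bc1 subunits fell in 7 of 26 cases, or 3 without 0 h replicate 3 and 2 without 48 h replicate 1. CYC1 (cytochrome c1) read 5.99, 6.67 and 6.48 at 0 h and 4.81, 4.88 and 5.28 at 48 h, -1.39 (SE 0.28, limma adjusted p = 0.0018). ATP synthase subunits fell in 8 of 19 cases, or 5 without 0 h replicate 1 and 4 without 0 h replicate 3 or without 48 h replicate 1. ATP5MC2 differed by -1.06 (SE 0.25) and ATP5F1C by -0.69 (SE 0.15).

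Nuclear pore genes fell in 16 of 28 cases with none higher (median -0.77). NUP107 read 9.16, 9.18 and 8.91 at 0 h and 7.65, 7.75 and 7.69 at 48 h, -1.39 (SE 0.16, limma adjusted p = 9.16e-06). NDC1, which anchors the pore, differed by -1.92 and NUP35 by -1.55. Of 33 aminoacyl-tRNA synthetases 9 fell (5 without 48 h replicate 1) and 1 rose. QARS1 and FARS2 fell by 1.60 and 1.38. WARS1, the interferon-inducible tryptophan enzyme, rose by 1.28. The WARS1 call was lost without 0 h replicates 1 (limma adjusted p = 0.14) or 2 (0.111) or 48 h replicates 1 (0.101) or 2 (0.138).

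Heat shock and chaperonin genes fell in 8 of 35 cases (22.9%) and rose in 3 (8.57%, near the 6.92% of all genes). HSPA14 differed by -1.59, BAG1 by -1.32, BAG3 by 1.13 and HSPA1L by 1.11. Without 0 h replicate 2, 5 fell, and without 0 h replicate 3, 5 rose. TRAP1 fell by 1.34, with -0.07 on its other probe set. Of 32 constitutive proteasome subunits 3 were called lower (PSMC6 -0.79, PSMB2 -0.58, PSMA3 -0.56), or 9.38%, near the 8.11% of all genes. The count was 1 without 0 h replicate 3 or 48 h replicate 2, and 0 without 0 h replicate 2, without 48 h replicate 1 or with quantile normalization. By limma adjusted p, PSMC6 was lost without 0 h replicates 2 (0.0916) or 3 (0.0674) or 48 h replicate 1 (0.127). PSMB2 and PSMA3 were lost without most single arrays (0.0617 to 0.174).

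**Figure D4:**
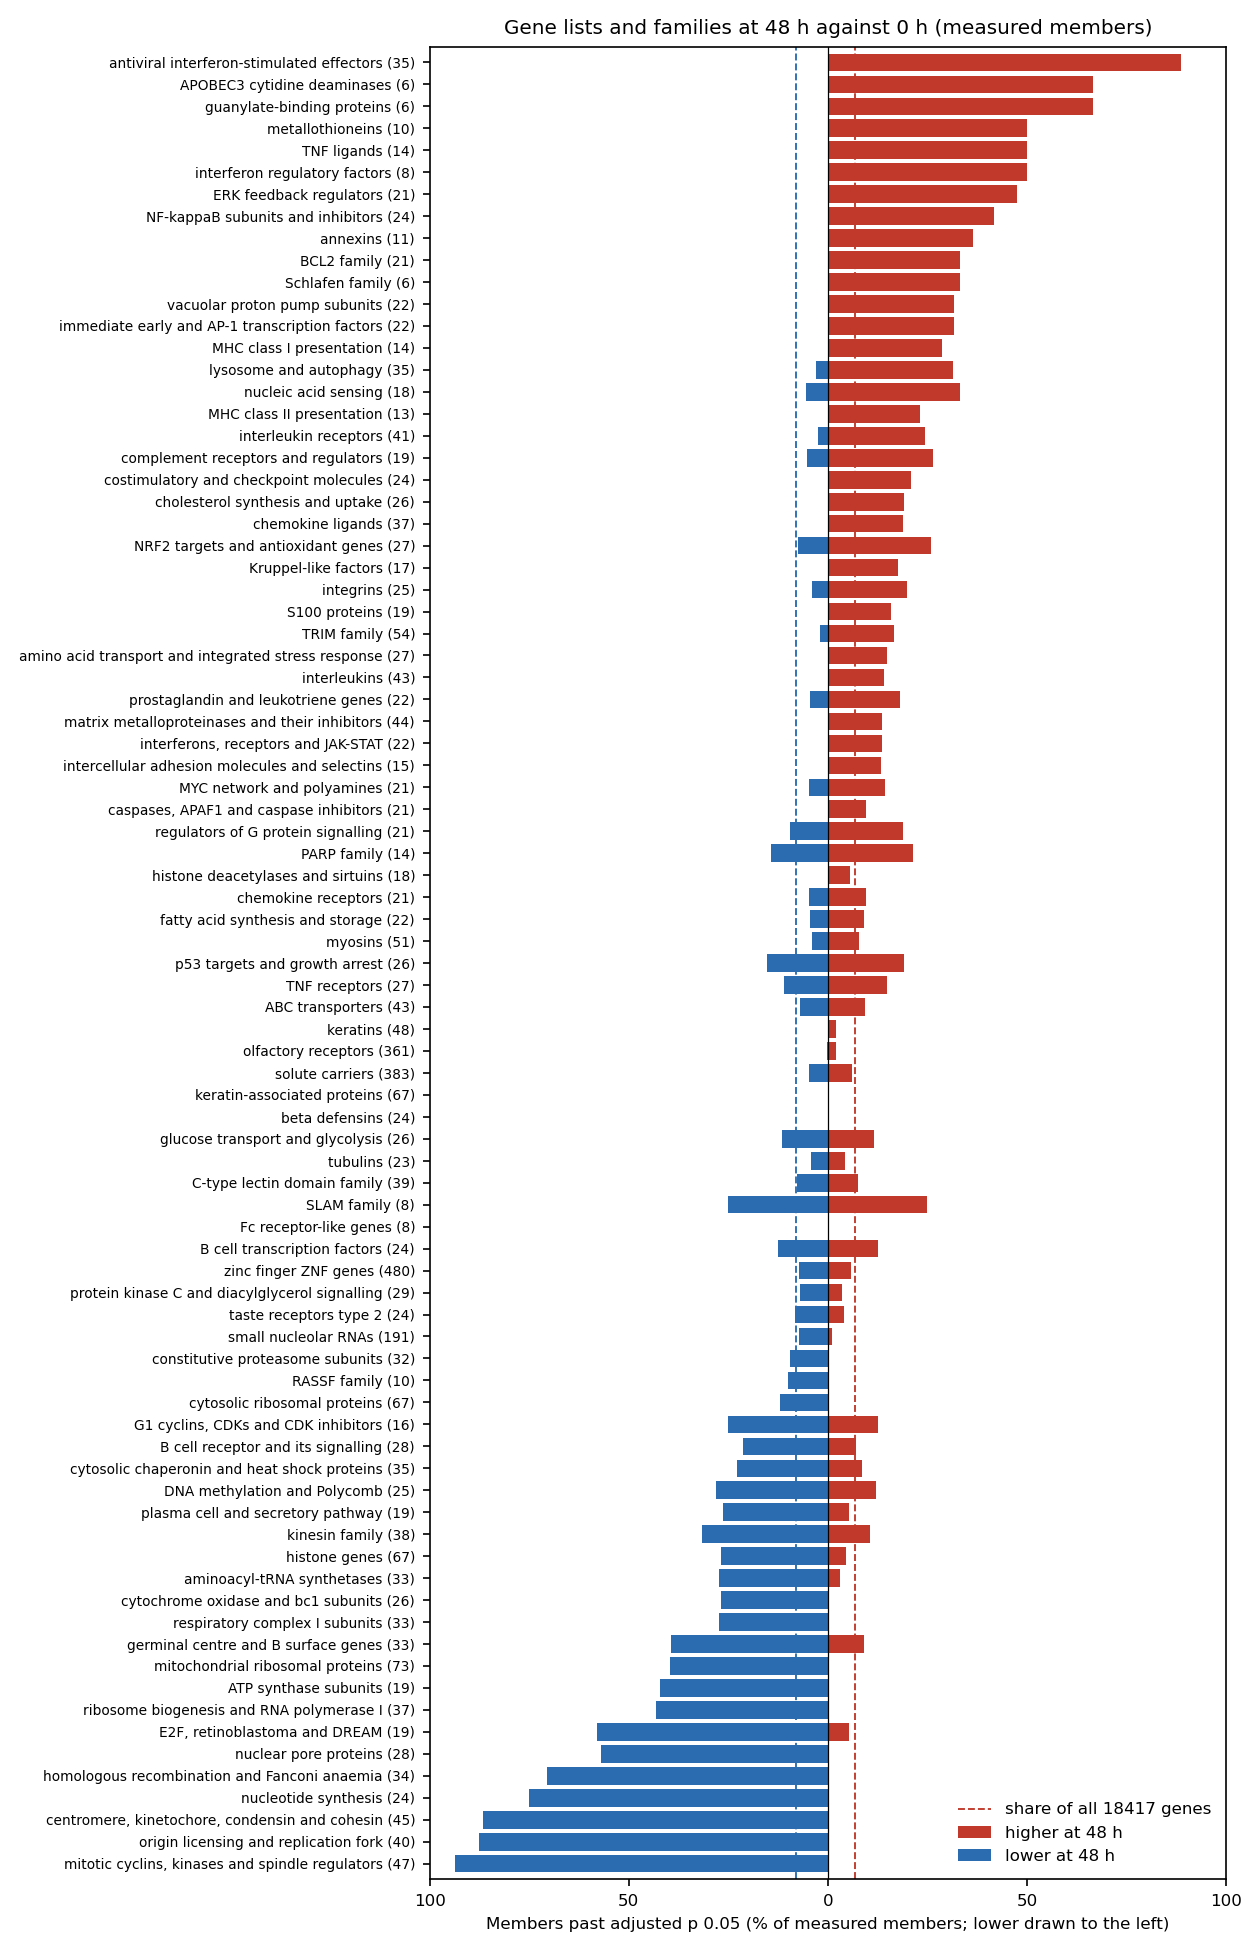
Percent of measured members of each gene list that were called higher (bars to the right) or lower (bars to the left) at 48 h against 0 h, with dashed lines at the shares of all 18417 genes (6.92% higher and 8.11% lower). The antiviral effectors stand alone at the high end on the right, and the mitotic (93.6%), replication (87.5%) and kinetochore (86.7%) lists reach farthest to the left.

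B cell genes were mixed, with more falls than rises. Of the 6 measured B cell markers 2 fell. BLNK, the adaptor behind the B cell receptor, read 7.94, 7.65 and 7.86 at 0 h and 4.97, 5.11 and 4.39 at 48 h, -2.99 (SE 0.30, limma adjusted p = 2.01e-06). CD79A, a signalling chain of the receptor, read 7.12, 7.09 and 7.53 at 0 h and 4.86, 5.43 and 6.15 at 48 h, -1.77 (limma adjusted p = 0.0115), a call lost without 48 h replicate 1 (0.0663). The list mean was 7.73 to 7.81 at 0 h and 6.26 to 6.92 at 48 h. In the B cell receptor list 6 of 28 fell (21.4%, against 8.11% of all genes) and 2 rose (7.14%, near the 6.92%). CR2 (CD21), the receptor through which Epstein-Barr virus enters, read 7.55, 7.79 and 9.07 at 0 h and 5.02, 5.50 and 4.77 at 48 h, -3.04 (SE 0.41, limma adjusted p = 4.68e-05). The kinase BTK fell by 1.95 (SE 0.20), and the phosphatase PTPN6 rose by 1.74 (SE 0.33). The count of higher members was 1 without 0 h replicate 1, 0 h replicate 2 or 48 h replicate 2.

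Of 33 germinal centre and B surface genes 13 fell (39.4%, against 8.11% of all genes) and 3 rose (9.09%, near the 6.92%), with a median of -0.38. RGS13, a brake on chemokine receptors in germinal centre cells, read 10.12, 9.84 and 9.70 at 0 h and 6.33, 6.51 and 8.96 at 48 h. The third 48 h array of RGS13 lay nearest to the 0 h arrays, and the difference was -2.62 (SE 0.49, limma adjusted p = 0.00105) or -3.47 without it. CD84 and GCSAM (HGAL) differed by -2.50 (SE 0.21) and -2.43 (SE 0.27), and the scavenging chemokine receptor ACKR4 by -2.59, with -0.51 on its other probe set. CCR7, the receptor that guides cells to the T zone of lymph nodes, read 5.67, 4.69 and 7.93 at 0 h and 10.08, 9.94 and 9.0 at 48 h. The 0 h arrays of CCR7 ranged over more than 3 units yet stayed below the 48 h ones, and the difference was 3.58 (SE 0.59, limma adjusted p = 0.000332). None of 8 Fc receptor-like genes was called by limma in either direction (1 had an unadjusted p under 0.05), with 1 lower without 0 h replicate 3.

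SLAMF7, an activating receptor of the SLAM family, rose by 3.28 (SE 0.36, limma adjusted p = 5.02e-06) and LY9 by 1.15, while CD84 and SLAMF6 fell. SLAMF6 differed by -1.67 and was not called without 0 h replicate 1 (limma adjusted p = 0.0622) or 48 h replicate 3 (0.0649). JCHAIN, which joins polymeric antibodies, read 10.90, 10.77 and 10.85 at 0 h and 7.53, 7.25 and 9.14 at 48 h. Again the third 48 h array was nearest to 0 h, and the JCHAIN difference was -2.87 (SE 0.31, limma adjusted p = 4.82e-06) or -3.45 without it. Of 19 plasma cell and secretory genes 5 fell, or 3 without 0 h replicate 2 or 48 h replicate 3, and IRF4 rose, 1 of 2 that rose without 0 h replicate 1 or 48 h replicate 3. MZB1 fell by 0.96 and TNFRSF17 (BCMA) by 0.92.

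Of 24 B cell transcription factors 3 rose and 3 fell (12.5% each, against 6.92% and 8.11% of all genes). IRF4, which drives plasma cell fate, read 4.17, 4.30 and 5.46 at 0 h and 6.09, 7.0 and 7.03 at 48 h, 2.06 higher (SE 0.35, limma adjusted p = 0.000398). ID2, an inhibitor of helix-loop-helix factors, rose by 1.67 (SE 0.30), and IKZF3 and ETS1 fell by 1.35 and 1.20. ID3 rose by 1.03 (limma adjusted p = 0.0274). The ID3 call was lost without any 1 of the 0 h arrays (0.0645 to 0.0742) or without 48 h replicates 2 (0.109) or 3 (0.139). RASSF6, a Ras association protein tied to apoptosis, was the 1 of 10 RASSF genes that was called (10.0%, near the 8.11% of all genes that fell). RASSF6 read 7.72, 7.16 and 8.16 at 0 h and 3.90, 3.87 and 5.45 at 48 h, -3.28 (SE 0.34, limma adjusted p = 2.75e-06). SPARCL1, a secreted matrix protein, read 8.91, 8.92 and 8.97 at 0 h and 5.46, 5.80 and 5.12 at 48 h, -3.47 (SE 0.17, limma adjusted p = 1.08e-09).

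**Figure D5:**
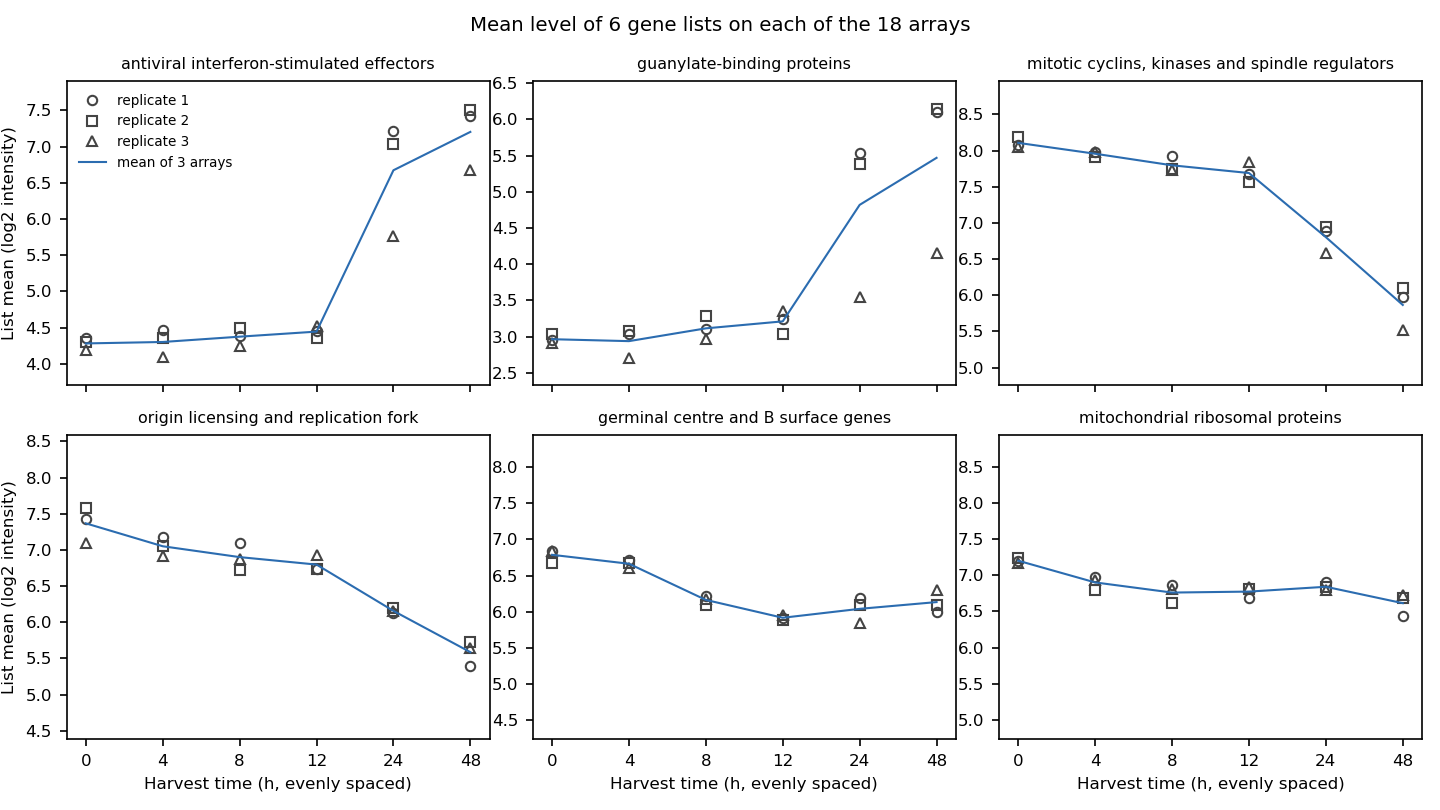
Mean log2 intensity of the members of 6 gene lists on each array at 0, 4, 8, 12, 24 and 48 h (times evenly spaced, a symbol for each array, lines through the mean of 3 arrays). The antiviral effectors stay between 4.09 and 4.52 up to 12 h and reach 6.67 to 7.51 at 48 h, while the mitotic list moves from 8.05 to 8.19 at 0 h down to 5.52 to 6.10 at 48 h.

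Protein kinase C and its relatives are the receptors of phorbol esters. Of 29 protein kinase C and diacylglycerol genes 2 fell (6.9%) and 1 rose (3.45%), under the shares of all genes (8.11% and 6.92%). None rose without 0 h replicate 2 or 48 h replicate 2, and 2 rose without 48 h replicate 1. RASGRP1 and RASGRP3, which couple diacylglycerol to Ras, differed by -1.68 (SE 0.26) and -1.39 (SE 0.27), while PRKCA and PRKCD differed by 0.20 and -0.01. DGKG rose by 0.43 (limma adjusted p = 0.0471). The DGKG call was lost without 0 h replicates 2 (0.151) or 3 (0.163) or 48 h replicates 1 (0.118) or 2 (0.15). Of 21 ERK feedback regulators 10 rose and none fell (median 0.48). DUSP10, a phosphatase of JNK and p38, read 4.83, 4.80 and 5.82 at 0 h and 7.44, 7.81 and 7.99 at 48 h, 2.60 higher (SE 0.27, limma adjusted p = 3.1e-06). DUSP1, DUSP5 and the Ras-ERK inhibitor SPRED1 rose by 2.17, 1.93 and 1.90, and RASA3 by 2.44 (SE 0.43).

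Of 22 immediate early and AP-1 genes 7 rose and none fell, or 4 without 0 h replicate 2. EGR1, an early growth response factor, read 5.89, 6.05 and 6.98 at 0 h and 9.55, 9.66 and 9.38 at 48 h, 3.23 higher (SE 0.33, limma adjusted p = 2.48e-06). JUN rose by 1.37 (SE 0.29, limma adjusted p = 0.00257). FOS rose by 1.23, a call lost without 0 h replicates 2 (limma adjusted p = 0.201) or 3 (0.0668) or 48 h replicates 1 (0.129) or 2 (0.107). Among 17 Krüppel-like factors KLF6, KLF3 and KLF10 rose, by 1.56, 1.08 and 0.96. KLF10 was lost without 0 h replicates 2 (0.0577) or 3 (0.0932) or 48 h replicate 2 (0.112).

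NF-kappaB subunits and inhibitors rose in 10 of 24 cases with none lower (median 0.53). TNFAIP3 (A20), the ubiquitin editor that ends the signal, read 4.94, 5.11 and 5.96 at 0 h and 7.52, 8.15 and 7.34 at 48 h, 2.33 higher (SE 0.37, limma adjusted p = 0.000209). TRAF1, NFKBIA, CYLD and NFKBIZ rose by 2.07, 1.90, 1.85 and 1.65. No array of TNFAIP3 or NFKBIA overlapped between the times. The promoter of TNFAIP3 (chr6:137867009-137867258, plus strand, RefSeq on GRCh38.p14) is shown with its NF-kappaB word in capitals (GGGA followed by any base and TTTCC, or by ATTCCC or CTTCCC, on either strand), 67 bases before the start. It was picked as the largest rise of its list with such a word among the genes searched.
TNFAIP3: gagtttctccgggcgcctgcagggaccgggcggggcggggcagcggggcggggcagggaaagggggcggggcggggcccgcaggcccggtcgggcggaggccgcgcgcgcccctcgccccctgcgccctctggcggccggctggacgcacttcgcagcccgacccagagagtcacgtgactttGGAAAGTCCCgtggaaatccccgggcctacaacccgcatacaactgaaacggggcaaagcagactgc
A word of this kind was found in 6 of 21 promoters of the NF-kappaB list (28.6%), in 6 of 27 chemokine promoters (22.2%), in 3.25% of the promoters of genes at least 2-fold higher and in 0.813% of all.

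Ligands and receptors of the TNF superfamily rose in part. Of 14 ligands 7 rose and none fell (median 0.54). TNF read 4.28, 3.31 and 3.59 at 0 h and 6.4, 6.5 and 6.73 at 48 h, 2.82 higher (SE 0.31, limma adjusted p = 4.82e-06), and LTA (lymphotoxin) rose by 2.50 (SE 0.40). TNFSF10 (TRAIL), which triggers apoptosis, read 5.34, 5.22 and 4.68 at 0 h and 9.96, 10.00 and 6.31 at 48 h, 3.68 higher (SE 0.90, limma adjusted p = 0.00816) and 4.91 without the third 48 h array. TNFSF10 was not called without 48 h replicate 2 (0.0514). TNFSF13B (BAFF), a B cell survival factor, rose by 2.71, or 3.81 without the third array, and TNFSF15 by 2.06. With only the 6 compared arrays fitted TNFSF13B was not called (limma adjusted p = 0.0508).

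Of 27 TNF receptors 4 rose (14.8%, against 6.92% of all genes) and 3 fell (11.1%, against 8.11%). Only 2 rose without 0 h replicate 3 or 48 h replicate 1. TNFRSF9 (4-1BB) read 4.09, 3.5 and 4.49 at 0 h and 7.34, 7.93 and 7.54 at 48 h, 3.58 higher (SE 0.35, limma adjusted p = 1.26e-06). CD27, a memory B cell marker, read 6.41, 6.88 and 6.49 at 0 h and 4.41, 3.64 and 4.51 at 48 h, -2.41 (SE 0.31, limma adjusted p = 2.56e-05). FAS, the death receptor, fell by 1.35 (SE 0.27).

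Of 43 interleukin genes 6 rose and none fell, IL1RN most (1.5, SE 0.31, limma adjusted p = 0.00223). That count was 3 without 0 h replicate 1 or 3, 1 without 0 h replicate 2 or 48 h replicate 1, and 2 without 48 h replicate 2 or with arrays centred on their median. With the dimmest genes (1 in 3) left out of the fit no interleukin was called. Interleukin receptors rose in 10 of 41 cases and fell in 1, or rose in 6 without 0 h replicate 2, 48 h replicate 1 or 48 h replicate 2. IL7R, a receptor of early lymphocytes, read 8.30, 7.62 and 7.86 at 0 h and 5.93, 6.21 and 5.28 at 48 h, -2.12 (SE 0.25, limma adjusted p = 1.17e-05). IL2RA (CD25) and the common chain IL2RG rose by 1.37 (SE 0.21) and 1.1 (SE 0.17), and the gp130 chain IL6ST by 1.62 (SE 0.35).

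Costimulatory and checkpoint genes rose in 5 of 24 cases with none lower, or 3 without 0 h replicate 1, 0 h replicate 2 or 48 h replicate 1. With only the 6 compared arrays fitted 2 rose. IDO1, which degrades tryptophan, read 2.60, 2.90 and 2.83 at 0 h and 7.22, 6.75 and 2.97 at 48 h, so the third 48 h array was at the 0 h level. The IDO1 difference was 2.88 (limma adjusted p = 0.00741), 4.21 without the third array, and not called without 48 h replicate 1 (0.051). CD274 (PD-L1) read 3.36, 3.99 and 6.09 at 0 h and 7.09, 7.91 and 5.64 at 48 h, and its arrays overlapped. The CD274 difference of 2.40 (limma adjusted p = 0.0208) was not called without 0 h replicates 1 (0.11) or 2 (0.0915) or 48 h replicates 1 (0.0667) or 2 (0.111). TNFSF9 rose by 1.07 (SE 0.22).

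Matrix enzymes and calcium-binding proteins were among the rises. MMP13 (collagenase 3) read 2.86, 2.88 and 2.64 at 0 h and 7.23, 7.64 and 7.30 at 48 h, a difference of 4.6 (SE 0.19) with limma adjusted p = 1.16e-10. TIMP1, an inhibitor of metalloproteinases, read 4.37, 4.18 and 4.57 at 0 h and 7.98, 8.72 and 9.86 at 48 h, 4.48 higher (SE 0.37, limma adjusted p = 2.13e-07). TIMP1 was highest on the third 48 h array, the reverse of the order seen in GBP5 and CXCL9. MMP10 read 3.06, 3.26 and 3.04 at 0 h and 7.75, 8.38 and 4.14 at 48 h, 3.64 higher (limma adjusted p = 0.000724) or 4.95 without the third array, and MMP7 (matrilysin) rose by 1.77. In all 6 of 44 metalloproteinase and inhibitor genes rose and none fell.

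ANXA2, a membrane-binding annexin, read 5.13, 4.90 and 6.12 at 0 h and 9.04, 9.30 and 9.83 at 48 h, 4.00 higher (SE 0.34, limma adjusted p = 2.84e-07). Its partner S100A10 read 4.30, 4.45 and 4.76 at 0 h and 6.42, 6.42 and 8.36 at 48 h, 2.56 higher (SE 0.43, limma adjusted p = 0.000357). Neither ANXA2 nor S100A10 overlapped between times. Of 11 annexins 4 rose, ANXA1, ANXA5 and ANXA4 by 0.83, 0.81 and 0.72. ANXA4 was lost without 0 h replicates 1 (0.0653) or 2 (0.112) or 48 h replicates 1 (0.0597) or 2 (0.15). S100A4 and S100A2 rose by 2.41 and 1.41, so that 3 of 19 S100 genes rose (15.8%, against 6.92% of all genes).

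Of 25 integrins 5 rose and 1 fell, or 2 fell without 0 h replicate 1. ITGAX (CD11c) read 3.83, 3.45 and 3.58 at 0 h and 5.05, 5.41 and 5.28 at 48 h, 1.63 higher (SE 0.29), ITGB3 and ITGAV rose by 1.11 and 1.05, and ITGA4 fell by 1.09 (SE 0.20). VCAM1 rose by 2.56 (SE 0.51, limma adjusted p = 0.00188). The activation marker CD69 read 6.34, 6.47 and 5.57 at 0 h and 8.57, 9.03 and 8.26 at 48 h. The CD69 difference of 2.49 (limma adjusted p = 0.0259) was lost without 0 h replicates 1 (0.0513), 2 (0.0517) or 3 (0.095) or 48 h replicates 1 (0.0624) or 2 (0.0901). CLEC7A (dectin-1), a receptor of fungal glucans, rose by 2.34 (SE 0.32) and the lectin-like CLECL1 fell by 2.28 (SE 0.22). Of 19 complement receptors and regulators 5 rose, or 3 without 0 h replicate 2, and CR2 fell, 1 of 2 that fell without 48 h replicate 2. C3AR1 rose by 1.91 (SE 0.36).

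Of 21 regulators of G protein signalling RGS1, RGS2 and RGS16 rose by 2.85, 2.50 and 1.15, among 4 that rose, and 2 fell, RGS13 and RGS18 (-0.74). The beta-tubulin gene TUBB2A read 6.35, 5.74 and 5.58 at 0 h and 9.34, 8.87 and 7.86 at 48 h, 2.80 higher (SE 0.34, limma adjusted p = 1.62e-05), with 0.76 on another probe set. Of the other tubulins TUBA1B fell by 0.70, a call lost without 0 h replicate 2 (limma adjusted p = 0.0769) or 48 h replicate 2 (0.0668).

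Genes of the BCL2 family, which holds anti-apoptotic and pro-apoptotic members, rose in 7 of 21 cases (33.3%, against 6.92% of all genes) with none lower. That count was 4 without 48 h replicate 2. BCL2A1, an anti-apoptotic member, read 5.75, 6.19 and 7.42 at 0 h and 9.82, 9.71 and 9.81 at 48 h, 3.33 higher (SE 0.38, limma adjusted p = 6.75e-06). The 48 h arrays of BCL2A1 were nearly equal and clear of the 0 h ones. The anti-apoptotic BCL2 and MCL1 rose by 1.93 (SE 0.40) and 1.21 (SE 0.26), and the pro-apoptotic BIK by 0.98 (SE 0.23). BMF, also pro-apoptotic, differed by 1.13, a call lost on leaving out any 1 of the 6 arrays (limma adjusted p = 0.0503 to 0.115). BAX differed by -0.04. CASP8 rose by 1.12 (SE 0.19, limma adjusted p = 0.000332).

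SLC2A3 (GLUT3), a high-affinity glucose transporter, read 5.86, 5.70 and 7.89 at 0 h and 10.74, 10.80 and 10.70 at 48 h, 4.26 higher (SE 0.44, limma adjusted p = 2.35e-06). SLC2A14, its close copy, rose by 1.93, and probes may not separate the pair. Of 26 glucose transport and glycolysis genes 3 rose and 3 fell (11.5% each, against 6.92% and 8.11% of all genes). The lower count was 1 without 0 h replicate 1 or 3, 0 without 0 h replicate 2, 48 h replicate 1 or 48 h replicate 2, and 7 without 48 h replicate 3. GAPDH differed by -0.25 (limma adjusted p = 0.559).

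ABCB1 (P-glycoprotein), which pumps drugs out of cells, read 4.05, 3.95 and 5.08 at 0 h and 7.72, 8.39 and 7.98 at 48 h, 3.67 higher (SE 0.26, limma adjusted p = 2.91e-08) or 12.7-fold. Of 43 ABC transporters 4 rose (9.3%) and 3 fell (6.98%), shares near those of all genes (6.92% and 8.11%). ABCD2 differed by 1.15 and ABCE1 by -0.86. Without 0 h replicate 2 or 48 h replicate 1, 1 fell, and with the dimmest genes (1 in 3) left out 2 rose. Among 22 prostaglandin and leukotriene genes PTGER4 and PTGS1 rose by 1.91 and 1.20, and ALOX5 fell by 0.98. In all 4 of these rose, or 2 without 0 h replicate 2 or 3.

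Lysosomal genes rose in 11 of 35 cases and fell in 1 (median 0.34). That count of rises was 5 without 0 h replicate 1 or 2 and 6 without 48 h replicate 2 or 3, and without 48 h replicate 3 the count of falls was 3. GPNMB, a lysosomal glycoprotein, read 5.44, 5.54 and 5.84 at 0 h and 8.07, 8.62 and 8.44 at 48 h, 2.77 higher (SE 0.30, limma adjusted p = 4.82e-06). SQSTM1 (p62), the autophagy receptor, rose by 2.43 (SE 0.33) and the sialidase NEU1 by 1.86 (SE 0.38). NPC1, which moves cholesterol out of lysosomes, read 5.33, 5.45 and 5.84 at 0 h and 6.78, 7.77 and 7.91 at 48 h, 1.95 higher (SE 0.25, limma adjusted p = 2.31e-05). Proton pump subunits rose in 7 of 22 cases with none lower, ATP6V1B2 by 1.19 and ATP6V0E1 by 1.18.

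Cholesterol genes rose in 5 of 26 cases (19.2%, against 6.92% of all genes) with none lower, or in 3 without 48 h replicate 3, when 2 fell. NPC2 rose by 1.16 and HMGCS1, the synthase at the head of the pathway, by 0.79, the latter lost without 0 h replicate 3 (limma adjusted p = 0.0666). PLIN2, the coat of lipid droplets, read 5.65, 5.69 and 5.89 at 0 h and 8.02, 7.88 and 7.38 at 48 h, 2.02 higher (SE 0.30, limma adjusted p = 0.000115). ACSL1 rose by 1.09 (SE 0.24).

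Of 27 NRF2 and antioxidant genes 7 rose (25.9%, against 6.92% of all genes) and 2 fell (7.41%, near the 8.11%). Without 0 h replicate 1 or without 48 h replicate 3, 4 fell. SRXN1, which repairs oxidised peroxiredoxins, rose by 2.04 (SE 0.32), NQO1 by 1.66 (SE 0.24) and GCLC, the rate-limiting enzyme of glutathione synthesis, by 1.12 (SE 0.17), while PRDX6 fell by 1.42 (SE 0.34). MT2A, a metallothionein that binds zinc and copper, read 8.44, 8.49 and 9.46 at 0 h and 11.42, 11.42 and 10.66 at 48 h, 2.37 higher (SE 0.31, limma adjusted p = 3.39e-05). MT1G and MT1H rose by 1.32 and 1.03, among 5 of 10 metallothioneins, or 3 without 0 h replicate 2 or 48 h replicate 1. Metallothionein copies are near-identical, and which of them gives the signal is uncertain.

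In the amino acid transport and stress response list 4 of 27 rose (14.8%, against 6.92% of all genes) and none fell. DDIT3 (CHOP) read 5.13, 5.12 and 7.74 at 0 h and 8.41, 9.06 and 7.86 at 48 h. The 0 h replicate 3 of DDIT3 lay just under the lowest 48 h array, and the difference was 2.45 (SE 0.53, limma adjusted p = 0.00315). SLC38A2 rose by 1.24 (SE 0.25). SLC7A11, the cystine carrier, rose by 1.80, lost without 0 h replicate 2 (limma adjusted p = 0.0506). ASNS rose by 1.32, lost without 0 h replicates 1 (0.0683) or 2 (0.0637) or 48 h replicates 1 (0.0651) or 2 (0.0604). The ER chaperone HSPA5 differed by -0.29 (limma adjusted p = 0.261).

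Chromatin genes included the targets of butyrate. Of 18 histone deacetylases and sirtuins 1 rose (5.56%, under the 6.92% of all genes) and none fell, with 2 higher without 48 h replicate 1. The gene that rose was SIRT4, a mitochondrial sirtuin, by 1.89 (SE 0.28, limma adjusted p = 0.000111). HDAC1 differed by -0.06 (limma adjusted p = 0.887). The DNA methylation and Polycomb list also holds a nuclear lamin gene and H3K9 methyltransferases. Of its 25 genes 7 fell (28.0%, against 8.11% of all genes) and 3 rose (12.0%, against 6.92%). HELLS, a remodeller needed for DNA methylation, read 8.21, 7.97 and 7.76 at 0 h and 5.47, 5.52 and 6.08 at 48 h, -2.29 (SE 0.20, limma adjusted p = 3.96e-07). LMNB1 (lamin B1) and the H3K9 methyltransferases SUV39H1 and SUV39H2 fell by 1.28, 1.08 and 1.00. Of the MYC network MYC itself differed by -0.44 (limma adjusted p = 0.174). MXD1, the antagonist of MYC, rose by 1.77 (SE 0.22), SAT1, which breaks down polyamines, by 1.95 (SE 0.43), and SRM, which makes spermidine, fell by 1.14 (SE 0.23).

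Precursor regions of 173 microRNA genes were measured, and 5 were called, all named here after their values were seen. MIR21 read 3.16, 2.94 and 3.29 at 0 h and 4.77, 5.59 and 3.72 at 48 h, 1.56 higher (SE 0.48, limma adjusted p = 0.0331). MIR222 and MIR221, neighbours on chromosome X, rose by 1.27 (SE 0.31) and 0.88 (SE 0.21), and MIR133B by 0.55 (SE 0.14). MIR98 fell by 0.48 (SE 0.13). All but MIR98 had a mean at 48 h above that at 0 h, but each of the 5 started near background. The mature strands (RefSeq, GRCh38.p14) are shown with the seed, bases 2 to 8, in capitals.
hsa-miR-21-5p: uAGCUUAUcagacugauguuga
hsa-miR-221-3p: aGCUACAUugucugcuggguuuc
hsa-miR-222-3p: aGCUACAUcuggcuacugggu
hsa-miR-133b: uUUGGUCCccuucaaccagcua
hsa-miR-98-5p: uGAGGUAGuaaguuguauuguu
The MIR221 and MIR222 strands share the seed GCUACAU, and the MIR98 strand carries the let-7 seed GAGGUAG. The probes read precursors, and mature levels were not measured.

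Large families gave counts near or under the shares of all genes. Of 480 ZNF genes 28 were higher and 35 lower, or 23 lower without 0 h replicate 1. ZNF280A read 3.55, 3.58 and 3.71 at 0 h and 7.30, 7.47 and 6.49 at 48 h, 3.48 higher (SE 0.24, limma adjusted p = 3.36e-08). ZNF556 and ZNF555 rose by 3.16 (SE 0.46) and 3.14 (SE 0.30) and ZNF791 by 2.13 (SE 0.22), while ZNF724 fell by 2.07 (SE 0.36). Of 383 solute carriers 23 were higher (14 without 0 h replicate 2) and 18 lower. Olfactory receptors, silent in most tissues, were higher in 7 and lower in 1 of 361 cases. Between 2 and 4 were higher on leaving out any 1 array other than 48 h replicate 3, and 3 were lower without 0 h replicate 1 and 2 without 48 h replicate 2. That 1 was OR13A1, which read 7.71, 7.61 and 6.56 at 0 h and 4.37, 4.83 and 4.97 at 48 h, -2.57 (SE 0.25, limma adjusted p = 1.04e-06). None of 24 beta-defensin or 67 keratin-associated protein genes was called by limma, with 3 and 3 at an unadjusted p under 0.05.

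The 24 h arrays show how far these levels had gone a day before the end. The contrast of 48 h with 24 h shares the 48 h arrays with that of 48 h with 0 h, so values are only set side by side. It called 74 genes (0.402%), 13 higher (0.0706%) and 61 lower (0.331%). CCNB1 had a mean of 6.93 at 24 h and differed by -2.36 between 24 h and 48 h (SE 0.21, limma adjusted p = 1.38e-05), beside -3.37 from 0 h. BUB1B differed by -1.55 (limma adjusted p = 0.000252) beside -3.26, and RRM1 by -1.26 (limma adjusted p = 0.000459) beside -2.93. Of the mitotic list 17 members were lower at 48 h than at 24 h. MMP13 differed by 2.38 (SE 0.19, limma adjusted p = 6.5e-06) beside 4.6. IFIT1 differed by 0.02 (limma adjusted p = 0.993) beside 6.89, and IFI44L by 1.63 (limma adjusted p = 0.131) beside 7.62. SLC2A3 and ABCB1 differed by -0.05 and -0.07 from 24 h and neither passed.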

How the data were processed

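RNA from Raji cells was measured on Affymetrix HuGene 1.0 ST arrays at 6 times with 3 arrays each. The deposited values are log2 intensities per probe set. The log base was read from their range, and the authors' software, background correction, normalization and genome build are not given in the sources used here. Of 33297 probe sets, 19460 carried 1 gene name, 1754 several and 12083 were not named here. The brightest 1-gene probe set stood for each of 18417 genes. limma 3.58.1 (R 4.3.3) was fitted to all 18 arrays with a mean per time (lmFit and eBayes, 12 residual and 5.58 prior degrees of freedom), without the replicate number, and p-values were adjusted by Benjamini-Hochberg over all genes. Precision is limited by 3 arrays a time. Promoter and miRNA sequences came from RefSeq on GRCh38.p14.

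The members and gene lists were chosen with earlier results of these data known. Genes were named as the 20 largest rises and 20 largest falls past adjusted p 0.05 whose arrays did not overlap, as up to 5 members of a list with the largest difference past the test, and, with values only, as defining members that did not pass. The alternatives were other scalings, filters, probe-set rules and fits, and leaving out each array.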

Additional observations from a re-analysis of the deposited data

Results flagged for a closer look

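Probe sets that name no single gene also moved, outside the comparison of named genes. Of 1754 probe sets that name several genes 156 differed between 48 h and 0 h, 65 higher and 91 lower (8.89%), with differences from -3.48 to 3.96. Of 12083 probe sets not named here 474 differed, 161 higher and 313 lower (3.92%), with differences from -3.35 to 5.06. In the same fit 12.4% of the probe sets with 1 gene name differed.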

How the results depend on the processing

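Asking for at least a 2-fold difference left 1388 of the 2768 changed genes, 625 higher and 763 lower. Leaving out 1 array at a time gave 2072 to 2636 changed genes, 873 to 1204 higher and 1096 to 1432 lower. Quantile normalization gave 2824 (1386 higher and 1438 lower), and arrays centred on their median gave 2813 (931 higher and 1882 lower). Using the 6 arrays alone gave 2107, array weights 2826, the interquartile range as a covariate 3315 (1631 higher and 1684 lower), and leaving out the dimmest genes (1 in 3) 2724. The replicate numbers were not taken to pair the samples: the deviations of same-numbered arrays of 0 h and 48 h correlated from -0.0785 to 0.251, and over all times 20 of 45 same-numbered pairs correlated over 0.1. As a hint from the data, 9 of 18 arrays had their highest mean correlation, over the other times, with the arrays of their own number. With the replicate number as a block 2897 genes changed, 1344 higher and 1553 lower. Of 346 named genes 251 were called under each of 16 alternatives, 95 lost the call under at least 1, and 0 reversed. Most losses came with fewer arrays: 52 genes with the 6 arrays alone and 24 to 64 on leaving out 1 array, against 24 with centred arrays and 14 with quantile normalization. The 6 arrays alone also gave fewer calls in larger lists: 19 in place of 29 lower mitochondrial ribosomal proteins, 10 of 16 in ribosome biogenesis, 4 of 9 in complex I, 4 of 8 in ATP synthase (also with quantile normalization), 6 of 11 higher lysosomal genes and 15 of 23 higher solute carriers. Genes near background limit what can be seen: of the 4605 dimmest genes 99 were called higher and 28 lower.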
